A study of Mus musculus with 3 samples.

Results

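The sites described here are the genomic positions at which STAT5A signal scored high in both chromatin immunoprecipitation (ChIP-seq) libraries of mouse memory CD8 T cells. In ChIP-seq, an antibody pulls down a protein together with the DNA fixed to it, the DNA is sequenced, and regions rich in reads are called as peaks. A site was a peak of library 1 on chromosomes 1 to 19 that overlapped a peak of library 2 by at least 1 bp. It was called strong when its score was above the median of both full peak lists, 27 in library 1 and 11 in library 2. This gave 2625 strong sites among 7745 shared autosomal sites, or 33.9%, in lists of 14627 and 19236 peaks. The other 5120 shared autosomal sites, at or below either cutoff, are the comparison sites. Every shared site paired 1 peak of library 1 with 1 peak of library 2. The strong sites were chosen by the scores and the overlap of these same lists, so their number and scores are a description, without a test.

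All samples came from C57BL/6 CD8 T cells with the TCRP1A receptor, which recognises the tumour antigen P1A. The cells were activated with P1A, received STAT5CA, an active form of STAT5, after 24 h, and were cultured for a further 48 h. They were then transferred to congenic hosts and recovered 70 days later from spleen and lymph nodes as memory TCRP1A eTC-STAT5CA cells, although the tissue label reads blood. Of the 3 libraries, 2 were immunoprecipitated with an anti-Stat5a antibody and 1 was an input without antibody, for which no peak list was analysed here. All cells carried STAT5CA, so no library shows STAT5A binding without it. The labels do not say whether the ChIP libraries came from separate animals or cultures or how many animals were pooled, and the spread between the libraries may be technical. Peak lists hold no expression values, so the labelled cell type could not be checked against its markers. The files give no read totals, and the depth behind each score is unknown.

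STAT5A is a transcription factor that is phosphorylated downstream of cytokine receptors such as those for IL-2, IL-7 and IL-15. Phosphorylated STAT5 forms dimers that enter the nucleus and bind a short palindromic DNA element, and dimers at neighbouring elements can join as tetramers. In CD8 T cells STAT5 is known for its part in survival, proliferation and effector function. Many transcription factor binding sites lie far from gene starts, and several sites close together often belong to one regulatory region. The spacing and neighbourhood of sites are described for that reason, although positions were not assigned to genes. Distances between elements within a peak, 205 or 189 bp wide, are not seen in these lists, so tetramers were not tested. Positions are on mouse build mm9, counted from 1, and are those of the library 1 peak.

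Scores of strong sites were concentrated just above the cutoffs. The score is the authors' value for each peak, a whole number with no stated scale, and its levels are read here only within a list. In library 1 the scores of strong sites ran from 31 to 115 with a median of 35 (quartiles 31 and 43). In library 2 they ran from 12 to 56 with a median of 15 (quartiles 13 and 17). Comparison sites above the cutoff of 1 library alone had the same median and quartiles in that library. The crowding is thus not particular to strong sites. As percentiles of the full lists, the median strong site stood at 72.6 in library 1 and at 78.1 in library 2. The plot of scores shows this crowding toward the lower left corner of the strong field.

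**Figure D1:**
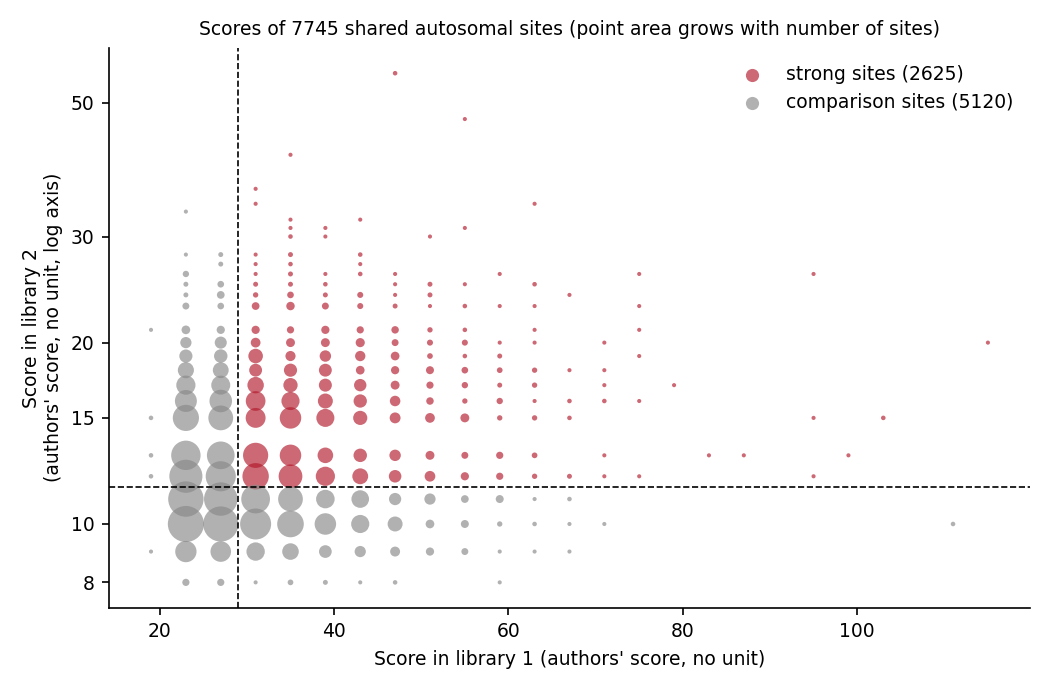
Scores of shared autosomal sites in library 1 (x axis) and library 2 (y axis, log axis), both the authors' scores without unit, with point area growing with the number of sites at that pair of scores. Dashed lines mark the cutoffs, and the 2625 strong sites (red) lie above both, most of them at library 1 scores of 31 to 43.

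The cutoffs fell between adjacent levels of the scores. Just inside the library 1 cutoff were 743 strong sites at a score of 31, and just outside it were 978 sites at 27 that were above the library 2 cutoff. Just inside the library 2 cutoff were 565 strong sites at a score of 12, and just outside were 614 sites at 11 that were above the library 1 cutoff. The median distance between paired peak centres was 26 bp on both sides of the first cutoff and 27 bp on both sides of the second. The centre distance showed no gap at either cutoff. The scores take separate levels, 27 then 31 in library 1 and 11 then 12 in library 2. A gap in score could therefore not be judged.

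Ranks in the 2 libraries were weakly related. Among strong sites, 494 were above the 90th percentile of library 1 and 630 above that of library 2, and 148 were above both, which is 5.64% of strong sites. Above the 95th percentile the numbers were 300, 294 and 47, and above the 99th they were 60, 52 and 5. Over all 7745 shared autosomal sites, 423 were above the 95th percentile of library 1 and 446 above that of library 2. Of these, 70.9% and 65.9% were strong. For the 90th and 99th percentiles the matching counts in each library over all shared sites are not given. A shared site above both percentiles is strong by the rule, so the numbers above both are the same over all shared autosomal sites. Spearman's rho between the scores of the libraries was 0.09 over the 2625 strong sites and 0.08 over all 7745 shared autosomal sites. These correlations are descriptions across sites, which share their libraries, and the selection by both scores limits the first.

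The strong sites with the highest score in one library, singled out after their values were seen, had a range of scores in the other. The rule keeps those other scores above the cutoff. At a library 1 score of 111, 2 shared sites scored 10 in library 2 and were therefore comparison sites. The highest library 1 score, 115, was at a site on chromosome 2 from 104944309 to 104944513, whose library 2 score was 20. Sites on chromosome 1 from 138994564 to 138994768 and on chromosome 7 from 27564913 to 27565117 each scored 103 in library 1 and 15 in library 2, the median of strong sites. In library 2 the highest score, 56, was reached by a site on chromosome 6 from 131327489 to 131327693 and by another on chromosome 7 from 73383147 to 73383351. Both had a library 1 score of 47, and at both the paired centres lay 1 bp apart.

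Ranked by the mean of both percentiles, the 15 leading strong sites lay on 8 autosomes and had mean percentiles of 98.4 to 99.5. The first was on chromosome 9 from 17030702 to 17030906, with scores of 95 in library 1 and 26 in library 2. Its paired centres were 7 bp apart, its nearest shared site lay 10.3 kb away and was a comparison site, and 5 other shared sites lay within 500 kb. The second, on chromosome 14 from 54623133 to 54623337, scored 75 and 26 with centres 4 bp apart, and had 1 shared site within 500 kb, at 241 kb. The third, on chromosome 17 from 4626377 to 4626581, scored 63 and 34, with centres 84 bp apart.

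Ranks 11 to 15 of this order were as follows. The site on chromosome 2 from 145288336 to 145288540 scored 75 in library 1 and 21 in library 2, with another shared site 7.88 kb away. On chromosome 6, the site from 69466264 to 69466468 scored 55 and 31 and had no peak of either library within 330 kb. The site on chromosome 12 from 70243500 to 70243704 scored 59 and 23, with a shared site 8.08 kb away. A second site on chromosome 2, from 118958288 to 118958492, scored 63 and 21. The last, on chromosome 1 from 153849253 to 153849457, scored 55 and 25.

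Most of the 15 leading sites had closely aligned peaks, and their neighbourhoods varied. The distance between paired centres had a median of 11 bp (range 4 to 84 bp). It was above the median of all strong sites, 23 bp, at 4 of the 15 and above 50 bp at 2, the third site and the ninth, on chromosome 5 from 52543758 to 52543962, where it was 53 bp. The nearest shared site lay from 2.58 to 430 kb away, with a median of 57.6 kb. It was a strong site in 8 of the 15, beside 34.8% of all strong sites and 34.2% of all shared autosomal sites. The 15 were ranked by the scores that the rule uses, so this count is a description. Other shared sites within 500 kb numbered 1 to 7, with a median of 4.

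Peak centres of the 2 libraries lay closer together at strong sites than at comparison sites. The rule required the peaks to overlap but did not use the distance between their centres. That distance had a median of 23 bp at strong sites (quartiles 11 and 41 bp) and of 29 bp at comparison sites (quartiles 13 and 50 bp), beside 27 bp over all shared autosomal sites. The median was lower for strong sites on 17 of 19 autosomes and equal on the other 2, chromosomes 7 and 10. Per autosome it ran from 19 bp, on chromosomes 15 and 18, to 27 bp, on chromosome 7, for strong sites, and from 23.5 bp on chromosome 14 to 34 bp on chromosome 13 for comparison sites. The ranges of the autosomes overlapped between the classes.

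Both tails of this distance differed between the classes. Centres lay within 10 bp at 615 strong sites, or 23.4% (95% Wilson interval 21.8 to 25.1%), against 19.4% of comparison sites (18.3 to 20.5%). They lay more than 50 bp apart at 450 strong sites, or 17.1% (15.7 to 18.6%), against 24.7% (23.6 to 25.9%). The largest distances were alike, 185 bp for strong and 195 bp for comparison sites, because the overlap rule sets a ceiling near the peak widths of 205 and 189 bp. The intervals here and below cover counting error only. The centre of library 2 lay to the lower coordinate side at 51.7% of strong sites and to the higher side at 47.2%, and the median signed offset was -2 bp.

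Alignment was graded over the score classes. Sites low in both libraries had a median centre distance of 32 bp (n = 1482), sites high in library 1 alone 30 bp (n = 1602), sites high in library 2 alone 27 bp (n = 2036) and strong sites 23 bp. Along the scores of library 1 the median fell from 29 bp at scores of 19 to 23 to 22 bp at 51 and above. Along those of library 2 it fell from 38 bp at scores of 8 to 9 to 21 bp at 18 and above. Within the strong sites, the highest 656 by mean percentile had a median of 21 bp and the lowest 656 had 28 bp. The relation was loose, with Spearman's rho of -0.12 between mean percentile and centre distance over the 2625 strong sites. Whether the number of reads behind a peak sets how finely its centre is placed was not tested.

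**Figure D2:**
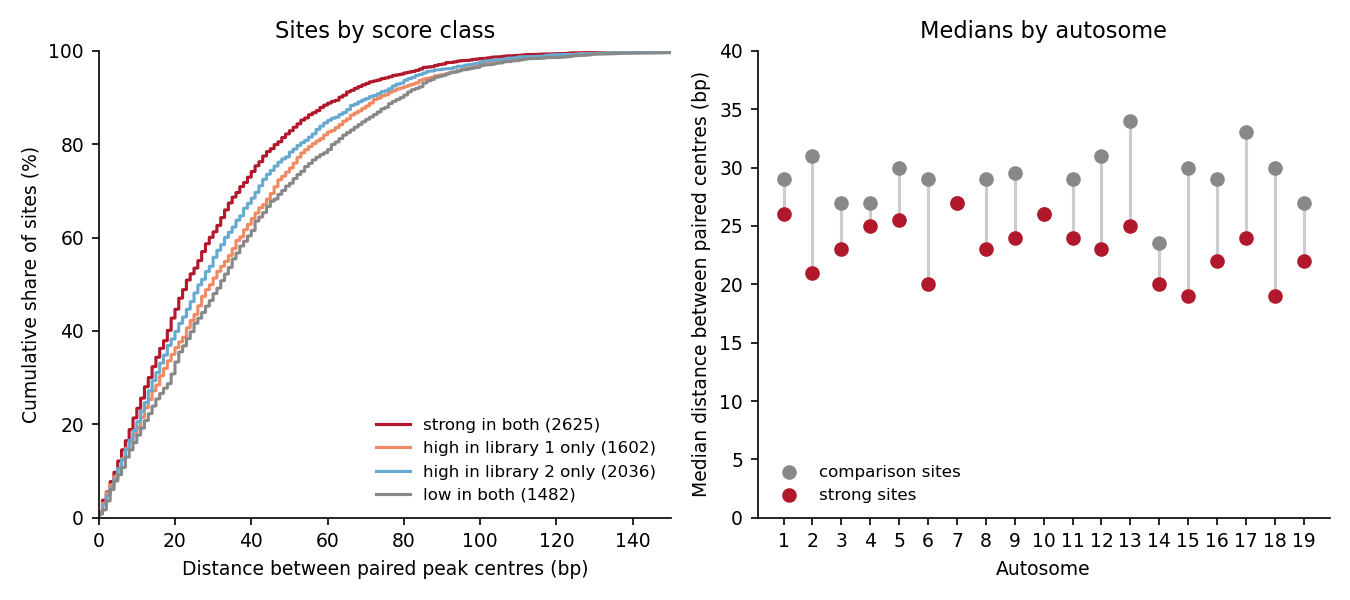
Left, cumulative share of sites (%) by distance between paired peak centres (bp) for the 4 score classes. Right, median distance (bp) on each autosome for strong (red) and comparison (grey) sites. The curve of strong sites rises first and that of sites low in both libraries last, and the red point lies below the grey on 17 of 19 autosomes.

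Spacing differed little between strong and comparison sites. Both classes were measured to the same list of 7745 shared sites, since distances among strong sites alone would be longer merely because there are fewer of them. The nearest other shared site lay at a median of 86.3 kb from a strong site (quartiles 33.2 and 190 kb) and of 84.8 kb from a comparison site (quartiles 32.4 and 193 kb). By autosome the median was higher for strong sites on 13, lower on 5 and equal on 1. Within the strong sites it was 92.3 kb for the highest 656 by mean percentile and 81.9 kb for the lowest 656. Another shared site lay within 20 kb of 458 strong sites, or 17.4% (16.0 to 18.9%), against 17.1% of comparison sites (16.1 to 18.2%) and 17.2% of all shared autosomal sites. Within 100 kb the shares were 54.6% (52.7 to 56.5%) and 55.4% (54.0 to 56.7%).

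The comparison sites were themselves mixed. Sites high in library 1 alone were the most widely spaced, with a median of 96.1 kb to the nearest shared site and 14.2% within 20 kb (12.5 to 16.0%). Those low in both libraries were the closest, with 79.3 kb and 19.6% (17.7 to 21.7%). Strong sites lay between these classes.

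Peaks found in 1 library only lay at similar distances from both kinds of site. The nearest peak of library 1 alone was at a median of 109 kb from strong and 111 kb from comparison sites. For peaks of library 2 alone the medians were 63.4 and 59.8 kb. No peak of either library lay within 100 kb of 333 strong sites, which is 12.7% (11.5 to 14.0%), against 12.3% of comparison sites (11.5 to 13.3%).

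The 3 most isolated strong sites covered low and high scores of library 1. The farthest from any peak was on chromosome 11 from 14844685 to 14844889, with the nearest peak 915 kb away and scores of 31 in library 1 and 19 in library 2. Next came a site on chromosome 14 from 109314199 to 109314403, 660 kb from any peak, which was at the lowest strong score in both libraries, 31 and 12. The third, on chromosome 15 from 18852628 to 18852832, was 659 kb from any peak and scored 51 and 12, with paired centres 3 bp apart.

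Regional density was also alike. Within 500 kb on either side, strong sites had a mean of 4.12 other shared sites (SD 2.64 over sites) and comparison sites 4.14 (SD 2.61), with a median of 4 and a maximum of 16 in both. Peaks of library 1 alone numbered 3.15 and 3.13 on average in these windows, and peaks of library 2 alone 6.38 and 6.51. The mean of shared sites was higher for strong sites on 8 autosomes and lower on 11. The comparison classes differed among themselves. Their means were 3.89 for sites high in library 1 alone, 4.32 for sites high in library 2 alone and 4.16 for sites low in both. Within the strong sites the 656 highest and the 656 lowest by mean percentile both had 4.14 shared sites in the window.

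Seen the other way, the strong share changed little with density. It was 32.6% of the 356 sites with no other shared site within 500 kb (27.9 to 37.6%) and 32.8% of the 521 sites with 9 to 16 (28.9 to 37.0%). Of the 6 classes of density, that with 7 to 8 neighbours had the highest share, 37.2% of 898 sites (34.1 to 40.4%), and its interval lay just above the overall 33.9%. The classes on either side had 33.0% and 32.8%, so no trend ran through them.

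Strong sites were spread along the chromosomes like the other shared sites. Position was scaled from the first peak of either library on a chromosome (0%) to the last (100%), because the files hold no chromosome lengths. The median position was 56.6% for strong and 56.0% for comparison sites, higher for strong sites on 10 autosomes and lower on 9. In steps of 10% of the span the strong share ran from 32.6% between 80 and 90% (29.8 to 35.6%) to 35.9% between 60 and 70% (32.6 to 39.3%), and every interval included the overall share. The first 5 Mb, next to the centromere in mouse chromosomes, held 89 strong sites, 3.39% (2.76 to 4.15%), against 3.38% of comparison sites. The last 5 Mb held 132, or 5.03% (4.26 to 5.93%), against 4.49% (3.96 to 5.09%).

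Between autosomes the strong share varied by 9.89 percentage points. It was lowest on chromosome 8, where 109 of 396 shared sites were strong, or 27.5% (23.4 to 32.1%), and highest on chromosome 18, with 107 of 286, or 37.4% (32.0 to 43.2%). Chromosome 8 was the 1 autosome of 19 whose interval did not include the overall 33.9%. Among 19 such intervals 1 can miss by counting error alone. Whether the range over autosomes exceeds counting error was not tested. The SD over autosomes was 2.72 percentage points. Strong sites per Mb of the spanned chromosome ranged from 0.850 on chromosome 8 to 1.48 on chromosome 11, with a median of 1.09.

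**Figure D3:**
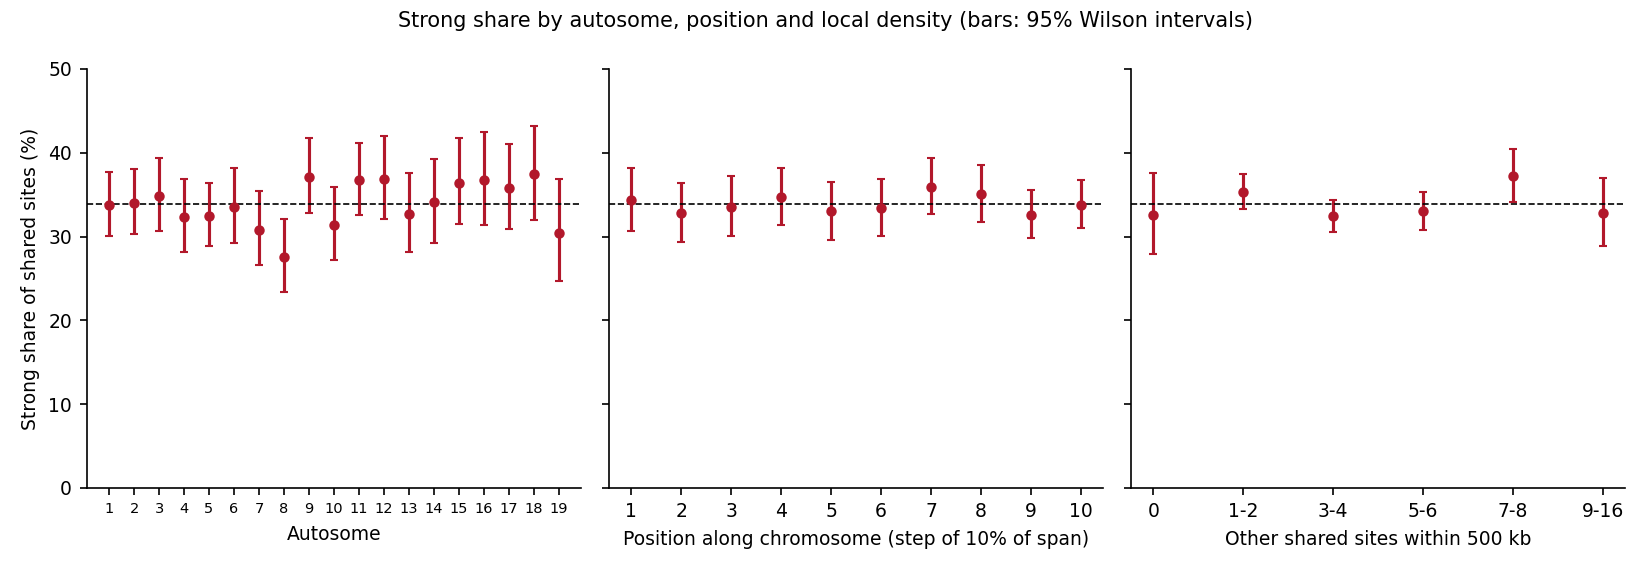
Strong share of shared sites (%) by autosome (left), by position between the first and the last peak of the chromosome in steps of 10% (middle) and by number of other shared sites within 500 kb (right). Bars are 95% Wilson intervals and the dashed line is the share over all shared autosomal sites, 33.9%; chromosome 8 and the class with 7 to 8 neighbours are the points whose intervals miss it.

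The nearest shared neighbour of a strong site was itself strong in 914 cases, or 34.8% (33.0 to 36.7%). For comparison sites it was 33.9% (32.6 to 35.2%), and over all shared autosomal sites 34.2%. The 2 classes differed by 0.89 percentage points, within these intervals. The score of the neighbour is part of the rule, so these shares are descriptions.

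One of the 6 bands of distance stood apart. When the nearest shared site lay 1 to 5 kb away, it was strong for 59 of 117 strong sites, or 50.4% (41.5 to 59.3%), and for 58 of 176 comparison sites, or 33.0% (26.4 to 40.2%). In the next band, 5 to 20 kb, the shares were 30.9% (26.2 to 36.1%) and 34.0% (30.6 to 37.7%). Under 1 kb there were only 8 strong sites, 2 of them with a strong neighbour. Both members of a close pair can enter these shares, so the intervals treat linked sites as separate and can be too narrow. Counting each pair of adjacent shared sites once, both were strong in 30 of 148 pairs 1 to 5 kb apart, or 20.3% (14.6 to 27.5%), against 11.5% of all 7726 adjacent pairs (10.8 to 12.3%). The 30 pairs lay on 14 autosomes, with a median separation of 2.58 kb.

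The difference at 1 to 5 kb was smaller with each library alone and with other cutoffs. With all autosomal peaks of library 1 alone, both peaks were above the median in 108 of 407 pairs at this distance, 26.5% against 24.5% of all adjacent pairs. With library 2 alone it was 252 of 942 pairs, 26.8% against 24.6%. With scores at or above the medians of both lists, 59 of 148 pairs qualified, 39.9% against 33.7%. With scores above the upper quartile of each list, 1 of 148 pairs qualified, 0.676% against 0.634%.

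**Figure D4:**
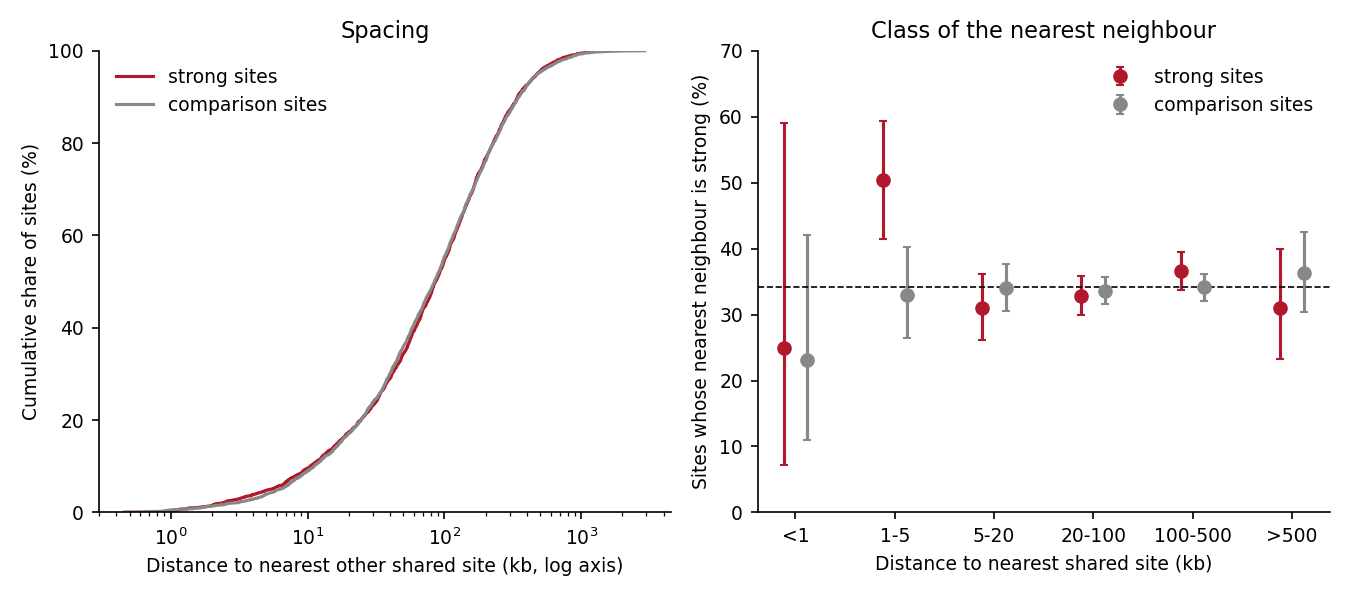
Left, cumulative share of strong (red) and comparison (grey) sites (%) by distance to the nearest other shared site (kb, log axis); the curves nearly coincide. Right, share of sites (%) whose nearest shared neighbour is strong, by distance to it (kb), with 95% Wilson intervals and the share over all sites dashed at 34.2%; strong sites with a neighbour at 1 to 5 kb reach 50.4%.

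The closest strong pairs, chosen for their distance after values were seen, had centres about 1 kb apart. On chromosome 15 sites from 32077147 to 32077351 and from 32078024 to 32078228 had centres 877 bp apart, both with a score of 31 in library 1 and with 17 and 16 in library 2. The next pair lay 1001 bp apart on chromosome 7, from 150183975 to 150184179 and from 150184976 to 150185180, with scores of 31 and 47 in library 1 and of 18 and 12 in library 2. On chromosome 11, sites from 105052779 to 105052983 and from 105053938 to 105054142 were 1159 bp apart, scored 51 and 31 in library 1 and 15 and 16 in library 2, and had paired centres 15 and 4 bp apart. The smallest distance between neighbouring peak centres was 412 bp in library 1 and 391 bp in library 2, so the lists hold no pair of autosomal peaks closer than this.

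Runs were counted over strong sites alone, so a single strong site can have comparison sites or single-library peaks nearby. When strong sites with neighbouring centres within 100 kb were joined, 1991 had no other strong site in reach and 634, or 24.2%, fell into runs of 2 or more. There were 248 runs of 2, 33 of 3, 8 of 4 and 1 of 7. The runs of 3 or more held 138 strong sites, 5.26% of the class. No matching count for comparison sites is given, so the runs do not show whether strong sites group more than others.

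The run of 7 strong sites spanned 257 kb on chromosome 17, from 30690780 to 30948022. No comparison site lay between them, while 3 peaks of library 1 alone and 9 of library 2 alone did. In order along the chromosome the library 1 scores were 35, 47, 55, 35, 39, 59 and 39. The library 2 scores of the same sites were 21, 17, 18, 32, 19, 13 and 20. All 7 were at or above the median strong score in library 1, and 6 of the 7 were above it in library 2. Their paired centres were 6 to 44 bp apart. Among the peaks of library 2 alone, those 75.7 and 86.0 kb from the first strong site scored 36 and 38, above every library 2 score of the run. The map of this run shows the peaks with their scores.

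**Figure D5:**
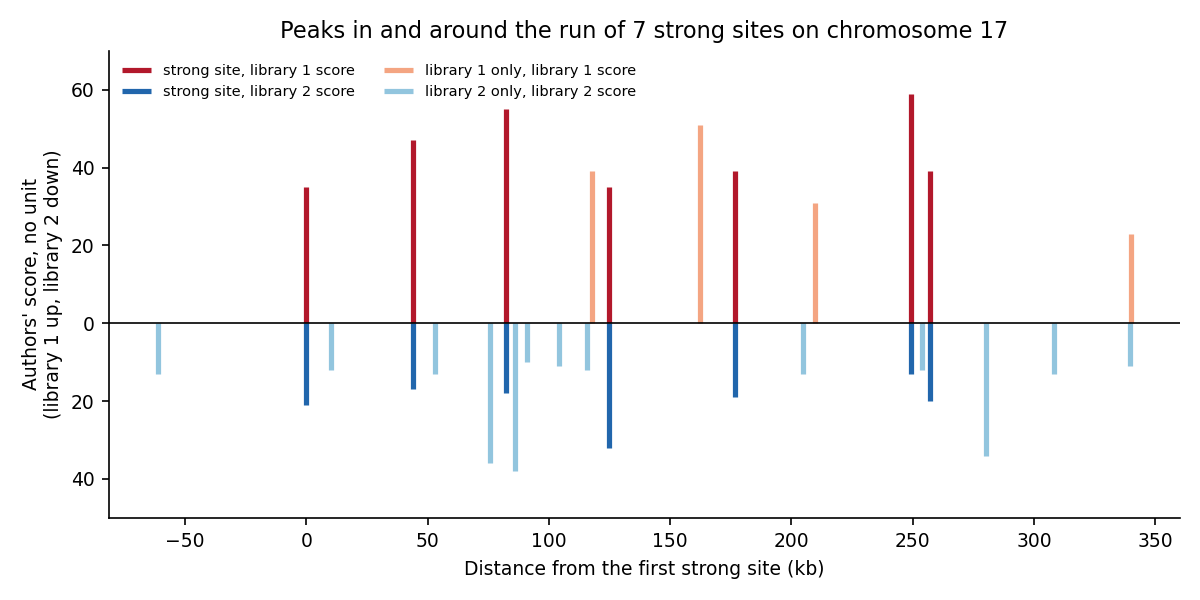
Peaks in and around the run of 7 strong sites, by distance from the centre of the first strong site (kb), with library 1 scores drawn upward and library 2 scores downward (authors' scores, no unit). Dark bars are strong sites and pale bars are peaks found in 1 library only; the 7 strong sites lie between 0 and 257 kb.

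Of the 8 runs with 4 strong sites, the 4 shortest are described. The shortest of all, on chromosome 17 from 8022445 to 8118056, covered 95.6 kb, and its scores were 31 to 51 for library 1 and 12 to 18 for library 2. On chromosome 3 one run covered 148 kb between 153684383 and 153832817, where library 1 scored 31 to 43 and library 2 16 to 24. A second run on that chromosome, from 137375972 to 137532425, held 4 strong sites that scored 35 to 63 in library 1 and 15 to 18 in library 2, and no other peak of either library. The run on chromosome 4, from 138424870 to 138574390, held 1 comparison site and 8 single-library peaks besides its 4 strong sites.

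Counted in fixed bins of 1 Mb, 944 of 2416 bins, or 39.1%, held no strong site, 753 held 1 and 432 held 2. At the upper end 9 bins held 6 or more. The variance of the count was 1.29 times its mean for strong sites and 1.58 times for comparison sites, which are more numerous (1.09 and 2.12 per bin). The bin with the most strong sites was 30 to 31 Mb of chromosome 17, which contains the run of 7 and held 8 strong among 9 shared sites, in 14 peaks of library 1 and 27 of library 2. Bins with 7 were 51 to 52 Mb of chromosome 3, with 15 shared sites, and 106 to 107 Mb of chromosome 11, with 9. Bins at 32 to 33 Mb of chromosome 4 and 125 to 126 Mb of chromosome 7 held 6 strong sites among 13 and 12 shared sites. Strong and comparison sites per bin rose together loosely, with Spearman's rho of 0.30 over the bins.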

How the data were processed

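Per the submitters' processing notes, HOMER and mouse build mm9 were used; their versions and roles, the control and any filters were not given in the sources used here. Per library, the authors deposited 1 list of ChIP peaks, with a score for each peak whose scale is not stated. The lists were named differently, with a suffix of unstated meaning for library 1 alone. Whether both lists passed the same steps is therefore unknown, and the shared and single-library counts can depend on it. The members, lists and measures were chosen with earlier results of these data known. Lists were read in Python 3.11.15 with pandas 2.3.3, compared with numpy 2.4.6 and scipy 1.17.1, and drawn with matplotlib 3.10.9. Distances run between peak centres. Percentiles are ranks within a full list, with ties averaged. No p-value was computed, because sites of one pair of libraries are not replicates; shares carry 95% Wilson intervals. Sites named by rule were the 15 highest by mean percentile, the 5 runs with the most strong sites (ties to the shortest), the 5 fullest 1 Mb bins and the 3 most isolated. The functions were tested on simulated data of 2080 sites, where all 378 planted strong sites and all 20 planted runs were found. Sequence and gene context were not analysed here, since the reference tables were on another build. Read depth is unknown. Alternatives covered the overlap rule, the cutoffs, each library alone, the chromosome starts, the window and the distance.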

Additional observations from a re-analysis of the deposited data

Results flagged for a closer look

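Shared sites on the X chromosome lie outside the autosomal rule, and the same cutoffs gave strong sites there above the 3 counts that a count of 0 allows. Of 131 shared X sites, 33 were above both cutoffs, which is 25.2% (95% Wilson interval 18.5 to 33.3%), against 33.9% of shared autosomal sites. No autosome had a lower share, the lowest being 27.5% on chromosome 8. The difference between X and autosomes was not tested.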

How the results depend on the processing

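Of 65 alternative values of the 9 summary results, 53 stayed within the spread set for them (1.5 times for the number of strong sites, the Wilson intervals for shares, the SD over autosomes for medians and ratios), and 12 did not. Most of these follow from the construction of the alternative. With scores at or above the medians there were 4500 strong sites, 58.1% of shared sites, and with scores above the upper quartiles 619, 7.99%. With each library alone they numbered 6938 to 9235, 48.9% to 49.3% of its peaks. Above the upper quartiles the range over autosomes was 4.70 percentage points. Strong sites there had a shared neighbour within 20 kb more often by 2.15 percentage points. The difference in share with a strong nearest neighbour was -1.42 points, against 0.89 in the main setting, so its sign reversed. The cause was not tested. With each library alone the 20 kb difference was -1.93 to -1.33 points, from 0.30. The difference in paired centre distance, -6 bp, lay between -7 and -5 bp in all 5 alternatives that could give it. The density ratio, 1.00, lay between 0.97 and 1.01 in 9 alternatives. The ratio of median distances to the nearest shared site, strong to comparison, was 1.02. It lay between 1.02 and 1.09 in the alternatives, within its spread. With library 1 alone it was 1.08, with library 2 alone 1.09, and above the upper quartiles 1.09. The alternatives for pairs 1 to 5 kb apart were chosen after seeing the data. No paired analysis was possible because no 2 groups with peak lists were compared. Read totals and input peaks were not analysed, so a strong site can be background that both libraries share.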

Other observations

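Sites with a very high score in 1 library were strong more often than the whole set of sites above that library's cutoff, though not all were. The rule fixes part of these shares, since such sites already pass 1 of the 2 cutoffs. Of the 4227 shared autosomal sites above the library 1 cutoff, 62.1% were strong. Of the 423 above the 95th percentile of library 1, 300 were strong, 70.9% (95% Wilson interval 66.4 to 75.0%), and 123 were at or below the library 2 cutoff. For library 2 the share was 56.3% of the 4661 sites above its cutoff, and 65.9% (61.4 to 70.2%) of the 446 above its 95th percentile, where 152 were at or below the library 1 cutoff. The only shared Y site was above both cutoffs.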
